A study of Homo sapiens with 16 samples.

Results

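JARID2 binding was mapped in THLE-2 cells by ChIP-seq, in which a protein is precipitated from fixed chromatin and the DNA that comes with it is sequenced. THLE-2 is a line of non-tumour human liver epithelial cells, immortalised with a viral T antigen, so the cells carry that antigen in every library. The sites described are all peaks on chromosomes 1 to 22 and X in the 2 THLE-2 JARID2 peak lists, 5351 in replicate 1 and 5526 in replicate 2, together 10877 of the 172991 peaks in the 8 lists of the series. Each list was called on 1 immunoprecipitated library (IP) against its own input, the sonicated chromatin before precipitation. The other lists used for comparison are 2 each of JARID2 in HepG2, a hepatocellular carcinoma line, and, in THLE-2, of EZH2 and of H3K27me3, a histone mark. All cells were fixed in 1% formaldehyde for 10 minutes with no other treatment named, and the series calls the 2 libraries of a group biological replicates. The protocol text of the THLE-2 libraries names no JARID2 antibody and gives the same antibody catalogue number for the JARID2, EZH2 and H3K27me3 libraries, so the target rests on title and antibody label alone. Peak lists hold no expression, so the labelled cell type could not be checked against its marker genes, and a JARID2-deficient control was not analysed here.

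JARID2 is an accessory subunit of Polycomb repressive complex 2 (PRC2), the enzyme complex that methylates histone H3 at lysine 27. EZH2 is the catalytic subunit, EED and SUZ12 are core subunits, and H3K27me3 is the mark they leave. JARID2 belongs to the Jumonji protein family but lacks demethylase activity, binds DNA and nucleosomes, and helps to bring PRC2 to CpG-rich promoters, above all those of developmental transcription factors in stem cells.

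Many sites found in both replicates lay at CpG-rich gene starts, and the DNA of some of these is shown first. At 19 protein-coding genes, a 300-base promoter from RefSeq (GRCh38.p14, from 250 bases before to 50 bases after the transcription start) overlapped overlapping peaks of both replicates. These genes had 24 such promoters among the 22131 promoters of 15811 coding genes that the sequence table holds on 22 chromosomes. The first 5 sequences belong to the shared loci ranked highest by fold enrichment that have a promoter in both peaks. TASOR, TRIM59 and TMEM268 were added after their values were seen, because both summits lay within 300 bases of their starts. Among the 19 genes, the same held at SFT2D3, FGF2, CNTD1, PTBP1, FHL2, MCM7 and AP4M1, whose promoters are not printed, so the printed set is a choice. Capitals mark the GC box GGGCGG, the motif of Sp-family factors, and CCAAT, the motif of NF-Y, on either strand, so that they also read CCGCCC and ATTGG; in ARFGAP3 a CCAAT box and a GC box share a base. All sequences run 5′ to 3′ on the strand of the gene.
RNF130: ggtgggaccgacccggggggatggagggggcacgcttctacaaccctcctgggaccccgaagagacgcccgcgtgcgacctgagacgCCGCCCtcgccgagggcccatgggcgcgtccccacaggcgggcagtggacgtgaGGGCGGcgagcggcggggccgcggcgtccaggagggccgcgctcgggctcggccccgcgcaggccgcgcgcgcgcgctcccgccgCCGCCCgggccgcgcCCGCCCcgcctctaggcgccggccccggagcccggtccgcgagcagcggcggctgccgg
OTULIN: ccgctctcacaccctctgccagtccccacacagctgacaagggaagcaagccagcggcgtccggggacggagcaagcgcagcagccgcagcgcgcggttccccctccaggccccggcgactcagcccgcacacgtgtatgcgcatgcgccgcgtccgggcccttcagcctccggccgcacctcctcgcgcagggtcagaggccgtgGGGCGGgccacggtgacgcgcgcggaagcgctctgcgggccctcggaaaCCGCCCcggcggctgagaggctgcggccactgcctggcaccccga
ARFGAP3: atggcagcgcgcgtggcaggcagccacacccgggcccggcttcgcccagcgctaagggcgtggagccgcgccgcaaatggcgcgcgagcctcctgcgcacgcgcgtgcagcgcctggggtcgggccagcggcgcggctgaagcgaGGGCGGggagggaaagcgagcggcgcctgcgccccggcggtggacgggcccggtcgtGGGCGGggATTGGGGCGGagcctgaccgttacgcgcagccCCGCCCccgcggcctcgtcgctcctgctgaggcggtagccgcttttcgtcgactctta
ZNF598: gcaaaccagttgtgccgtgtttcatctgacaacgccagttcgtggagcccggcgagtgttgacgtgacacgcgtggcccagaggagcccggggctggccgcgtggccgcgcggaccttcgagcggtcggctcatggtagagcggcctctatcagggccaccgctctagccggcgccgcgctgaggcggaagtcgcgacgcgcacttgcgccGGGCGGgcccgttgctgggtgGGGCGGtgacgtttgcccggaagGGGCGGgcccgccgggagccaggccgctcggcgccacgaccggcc
MAPDA: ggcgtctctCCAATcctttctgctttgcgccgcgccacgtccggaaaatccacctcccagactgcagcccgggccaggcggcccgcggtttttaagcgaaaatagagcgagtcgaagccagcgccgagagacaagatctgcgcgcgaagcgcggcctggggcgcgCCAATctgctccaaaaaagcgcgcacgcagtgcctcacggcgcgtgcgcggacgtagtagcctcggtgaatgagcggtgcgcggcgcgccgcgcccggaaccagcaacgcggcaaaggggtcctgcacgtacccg
TASOR: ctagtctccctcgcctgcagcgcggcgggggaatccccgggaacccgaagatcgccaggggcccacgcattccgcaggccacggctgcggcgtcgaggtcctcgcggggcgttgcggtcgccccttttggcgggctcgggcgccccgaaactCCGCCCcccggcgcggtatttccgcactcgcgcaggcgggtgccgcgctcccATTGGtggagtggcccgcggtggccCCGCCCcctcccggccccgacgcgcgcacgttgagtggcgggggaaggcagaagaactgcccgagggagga
TRIM59: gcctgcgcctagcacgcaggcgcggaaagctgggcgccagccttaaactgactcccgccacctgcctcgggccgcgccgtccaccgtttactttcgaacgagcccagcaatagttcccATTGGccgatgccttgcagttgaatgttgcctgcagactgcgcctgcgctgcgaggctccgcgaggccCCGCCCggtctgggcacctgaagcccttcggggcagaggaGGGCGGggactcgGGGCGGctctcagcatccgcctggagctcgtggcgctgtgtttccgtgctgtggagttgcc
TMEM268: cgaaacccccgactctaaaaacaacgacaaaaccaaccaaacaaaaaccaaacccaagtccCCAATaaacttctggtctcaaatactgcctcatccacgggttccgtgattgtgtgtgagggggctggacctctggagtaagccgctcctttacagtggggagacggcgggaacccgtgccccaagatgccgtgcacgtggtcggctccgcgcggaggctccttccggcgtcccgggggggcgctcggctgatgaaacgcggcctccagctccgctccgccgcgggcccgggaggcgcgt

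The RNF130 promoter (chr5:180071710-180072009, minus strand) held 4 GC boxes and no CCAAT box, with 82.3% G and C. The OTULIN promoter (chr5:14664468-14664767, plus strand) held 2 GC boxes, and that of ARFGAP3 (chr22:42857224-42857523, minus strand) held 4 GC boxes and 1 CCAAT box. ZNF598 (chr16:2009772-2010071, minus strand) had 3 GC boxes, while MAPDA (chr15:43330101-43330400, plus strand) had none and 2 CCAAT boxes. TASOR (chr3:56683216-56683515, minus strand) held 2 GC boxes and 1 CCAAT box, TRIM59 (chr3:160449737-160450036, minus strand) 3 and 1, and TMEM268 (chr9:114611041-114611340, plus strand) no GC box and 1 CCAAT box.

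As a set, the promoters under JARID2 peaks were rich in G, C and CpG. Their median G and C content was 66.0% for the 368 promoters overlapped in replicate 1, 71.0% for the 464 of replicate 2 and 71.8% for the 24 overlapped at shared loci, against 62.3% over all 22131. The ratio of observed to expected CpG had medians of 0.868, 0.904 and 0.98 against 0.738. A GC box stood in 71.7% and 75% of the promoters of replicates 1 and 2 and in 87.5% of those at shared loci, against 56.3% of all promoters. The CCAAT box was found in 31.2% and 24.4%, below the 34.6% of all promoters, but in 15 of the 24 at shared loci (62.5%). The TATA box TATAAA was in 7.34%, 3.23% and 0% against 9.46%. E-box (CACGTG) shares were 11.4% and 12.7% against 8.34%, and the ETS motif CCGGAAGT was in 9.51% and 7.97% against 5.34%. The hexamer GCCGCC had 59.0% and 70.3% against 43.9%, while the repeat GAGAGAGA had 1.36% and 1.72% against 3.17%. Promoters under EZH2 peaks of both EZH2 replicates, 864 in all, shared the G and C content (median 69.3%) and the GC box (73.6%), yet held the ETS motif in 0.116%. Motif matches describe letters in these windows, and several genes have more than 1 promoter in the table, some of them overlapping. At shared loci, promoters of AP4M1 and MCM7, and those of CNTD1 and COA3, also overlap on opposite strands. All of them hold a CCAAT box, so the 15 are not independent counts.

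The 2 libraries were alike in size and in the form of their peaks. They held 11.7 and 13 M IP tags (mapped reads after duplicates at a position were removed) against 16.2 and 14.7 M input tags. Peaks were narrow, with median lengths of 598 and 605 bp, and low, with medians of 13 and 14 tags. Only 0.675% and 0.658% of filtered IP tags lay in peaks. The authors' fold enrichment, IP over the local input background, had medians of 9.04 and 8.31. Their false discovery rate (FDR), which MACS estimates by swapping IP and input, had medians of 15.8% and 44.2%, and 4 and 11 peaks lay at or under 5%. Tag number limits the precision of each peak. The fold and FDR are the authors' own values per peak and are used here only to describe and rank peaks within a list.

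Peaks of both libraries lay at gene ends more often than the length of these regions would give. A peak counted as a gene-end peak when it overlapped 2 kb on either side of an annotated start or end of a protein-coding gene. In replicate 1, 717 peaks (13.4%, Wilson 95% interval 12.5% to 14.3%) and in replicate 2, 753 peaks (13.6%, 12.7% to 14.6%) did so, a mean of 13.5% ± 0.161 (SD, n = 2). By the summit, the base of highest signal, 12.6% and 13% lay in these windows, which cover 4.55% of the chromosomes. Another 46.6% and 44.1% of summits lay inside coding genes away from their ends, where 39.0% of the sequence is. Outside all annotated genes lay 30.3% and 30.7% of summits, against 43.3% of the sequence. Long non-coding RNA (lncRNA) genes held 9.83% and 11.5% of summits on 11.8% of the sequence. In the 69 and 86 peaks with a MACS score of at least 100 (10 times the negative log10 of p), the mean share of gene-end peaks was 45.3%, and among the 4 and 11 with an FDR of at most 5% it was 73.9%. The intervals cover counting error only, and neighbouring peaks are not independent.

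**Figure D1:**
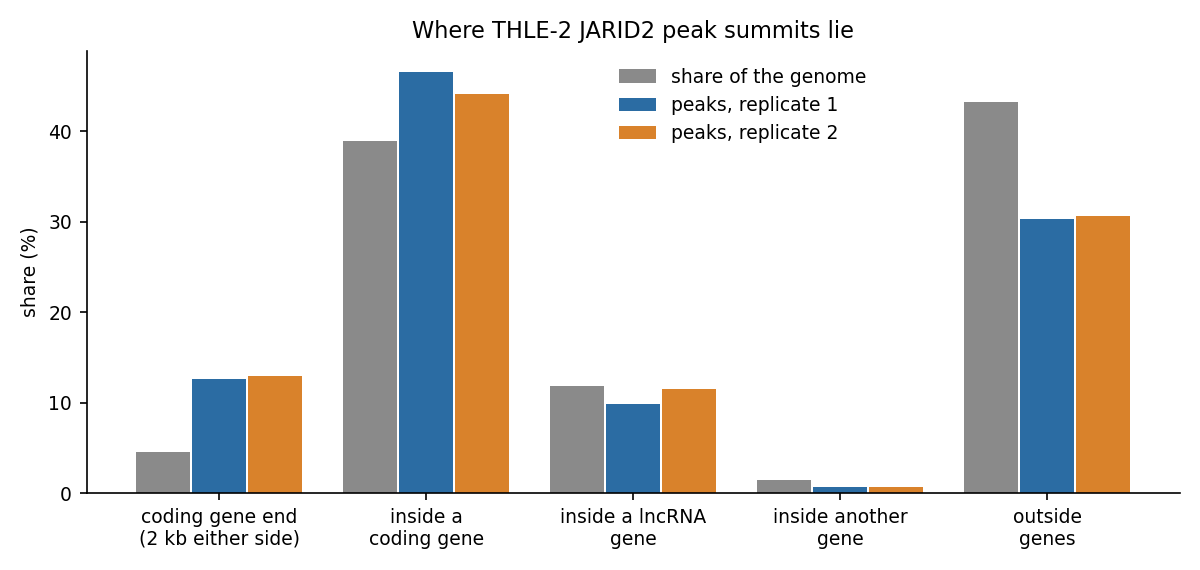
Share of peak summits of THLE-2 JARID2 replicate 1 (blue, 5351 peaks) and replicate 2 (orange, 5526 peaks) in 5 classes of the annotated genome, beside the share of chromosome length in each class (grey). Both replicates stand above the grey bar at coding gene ends (12.6% and 13% against 4.55%) and below it outside genes (30.3% and 30.7% against 43.3%).

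Most of the gene-end windows that were counted by end lay at gene starts. In replicate 1, 472 were at the 5′ end of the gene and 269 at the 3′ end (63.7% at the 5′ end). In replicate 2 the counts were 538 and 223 (70.7%). Fewer windows were counted than the 840 and 875 genes with a gene-end peak, so these shares cover a part of the windows hit. Measured against the starts in the promoter table, 358 of 5139 placed summits (6.97%, Wilson 95% interval 6.30% to 7.69%) and 448 of 5293 (8.46%, 7.74% to 9.24%) lay within 1 kb of a start, on 1.26% of the sequence. Most of these were within 500 bp, 241 and 335 peaks. Most other peaks were placed far away: 48.0% and 43.7% were between 10 and 100 kb from the nearest start in that table, and 32.0% and 37.5% were farther. The table holds starts of 15811 of the 19970 coding genes. These distances can therefore be too long and the shares near a start too low. EZH2 stood at 32.3% and 19.5% within 1 kb in its 2 THLE-2 libraries, H3K27me3 at 0.979% and 1.93%, and HepG2 JARID2 at 18.2% and 0.754%.

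Chromosome X stood apart in both lists. It carried 30 and 24 peaks, 0.192 and 0.154 per Mb, while the autosomes ranged from 1.22 to 3.29 per Mb in replicate 1 and from 1.54 to 2.41 in replicate 2. The X density was 0.106 and 0.0785 of the autosomal median. In HepG2 JARID2 the same ratio was 0.457 and 0.604, in THLE-2 EZH2 0.501 and 0.299, and in THLE-2 H3K27me3 0.0726 and 0.255. Coverage of X in the inputs was not analysed here, so its part in these ratios was not tested. Over the 22 autosomes, the density of replicate 1 followed the density of coding genes (Pearson r = 0.864, Spearman coefficient 0.735), and replicate 2 did so less (r = 0.271, Spearman coefficient 0.361); these points share a library each, and the values are descriptions. Chromosome 19, the most gene-dense, had 3.29 peaks per Mb in replicate 1 and 2.08 in replicate 2.

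The replicates shared few sites. Of the peaks of replicate 1, 55 (1.03%, Wilson 95% interval 0.791% to 1.34%) overlapped 56 peaks of replicate 2 (1.01%, 0.781% to 1.31%) by at least 1 bp, at 55 loci. By summits, 67 peaks of replicate 1 (1.25%) lay within 1 kb of a replicate 2 summit. As near to another summit of replicate 1 itself lay 28 peaks (0.523%). No summit of replicate 1 lay within 200 bp of another, so the second count is not a baseline for the first. Within 5 kb the counts were alike, 184 and 180, and the median distances were 140 and 134 kb. The EZH2 libraries of the same line overlapped at 63.1% and 37.0% of their peaks and the H3K27me3 libraries at 72.1% and 40.3%. HepG2 JARID2 was as low, at 0.28% and 1.10%. Stricter thresholds left fewer THLE-2 loci: ARFGAP3 and RNF130 were the 2 with a score of at least 100 in both replicates, and RNF130 the 1 with an FDR of at most 5% in both.

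**Figure D2:**
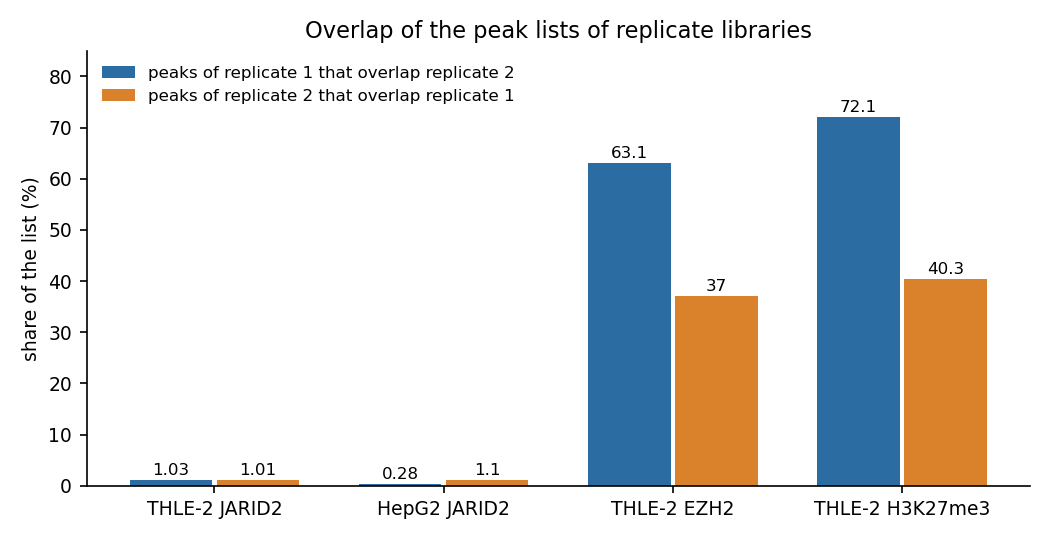
Share of the peaks of each list (percent, bars from 0) that overlap a peak of the other replicate of the same target, for replicate 1 (blue) and replicate 2 (orange) of 4 groups. The JARID2 lists of both lines lie at or under 1.10%, and the EZH2 and H3K27me3 lists between 37.0% and 72.1%. The lists differ in peak length, peak number and depth.

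The number of tags in a peak separated the sites in both libraries, a pattern found after the data were seen. Among peaks of 11 or 12 tags, 41 of 2054 in replicate 1 (2.00%, Wilson 95% interval 1.47% to 2.70%) and 24 of 1617 in replicate 2 (1.48%, 0.999% to 2.20%) lay within 1 kb of a coding start. With 20 to 29 tags the shares were 32.0% and 32.7%. With 30 or more tags they were 63 of 108 (58.3%, 48.9% to 67.2%) and 103 of 145 (71.0%, 63.2% to 77.8%). Overlap with the other replicate went from 0.509% and 0.413% in the lowest class to 14.3% and 11.9% in the highest. Overlap with HepG2 JARID2 replicate 1, a library of another cell line, went from 1.71% and 0.886% to 38.4% and 51.0%, and overlap with any EZH2 peak from 0.740% and 0.827% to 5.36% and 3.97%. H3K27me3 replicate 2 went the other way, from 12.3% and 9.45% down to 6.25% and 1.99%. Peak length rose with tags, from medians of 541 and 515 bp to 1319.5 and 1234 bp, and a longer peak has more room to overlap another; its part in these shares was not tested.

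**Figure D3:**
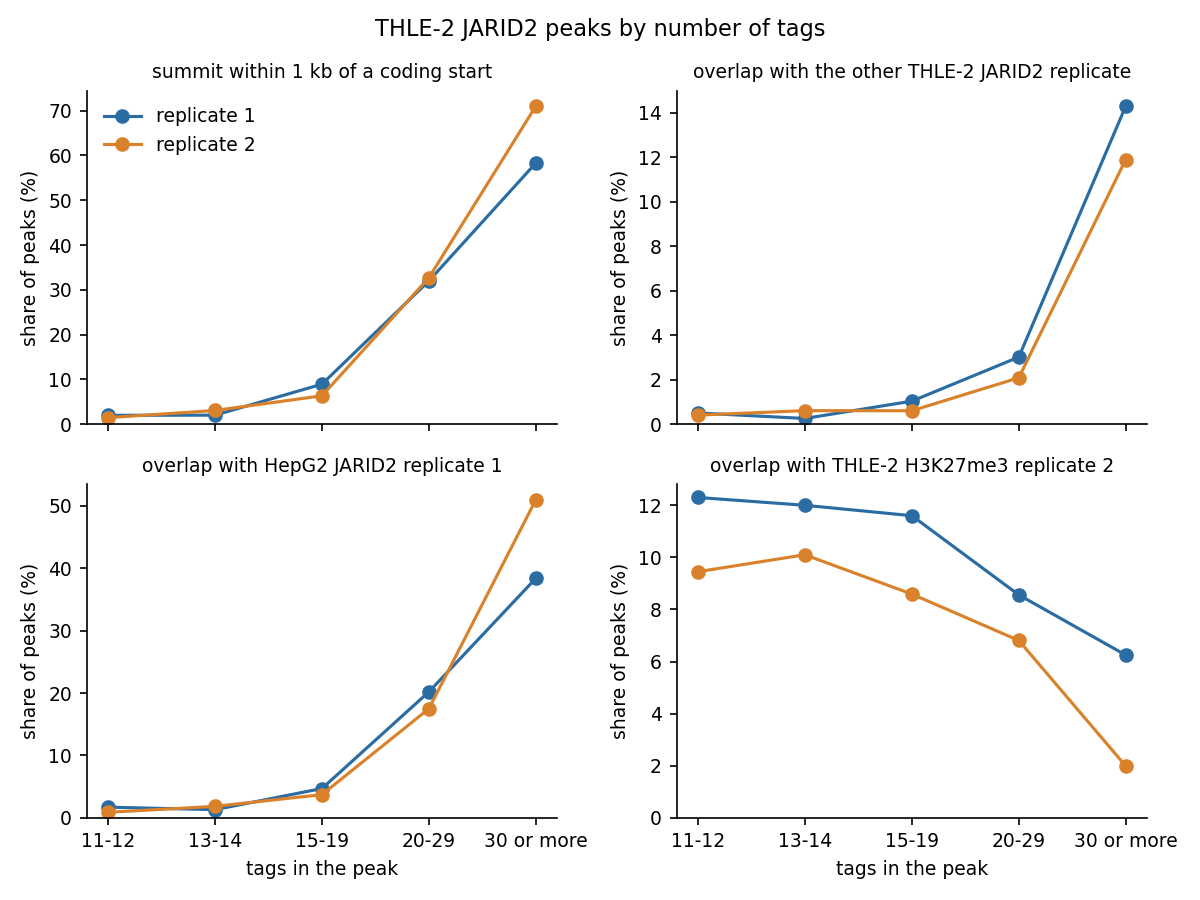
Shares of THLE-2 JARID2 peaks (percent, linear axes from 0) in 5 classes of tags per peak, for replicate 1 (blue) and replicate 2 (orange), with 4 panels for nearness to a coding start and for overlap with 3 other lists. The first 3 shares are highest at 30 or more tags in both replicates (58.3% and 71.0% at starts), while overlap with H3K27me3 is lowest there (6.25% and 1.99%).

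Fold enrichment did not separate the sites in this way. With each list cut into 4 classes of fold, the highest class (888 and 1300 peaks, folds from 10.4 and 9.4 up) had 3.66% and 5.73% of its placed peaks within 1 kb of a start, and the lowest class (1350 and 1411 peaks, folds up to 7.83 and 7.28) had 15.7% and 15.4%. The median fold went from 9.23 and 8.47 at 11 or 12 tags to 6.28 and 6.77 at 30 or more. The extreme case was a peak of 640 tags in replicate 1 (chr3:93470265-93470942, 402483 bp from the nearest coding gene end, PROS1), with the lowest fold of its list, 2.48; it overlapped HepG2 JARID2 replicate 1 but no replicate 2 peak. The next highest peaks of replicate 1 by tags were at the starts of DSP, which encodes the junction protein desmoplakin (58 tags, fold 4.16), and B3GALT6, a galactosyltransferase of proteoglycan synthesis (56 tags, fold 8.85). In replicate 2 the most tags were at ARHGDIA, which encodes a GDP-dissociation inhibitor of small GTPases (79 tags, fold 9.12), in the SETD1B gene 7211 bp from RHOF (69 tags, fold 9.41), and at CDT1, a licensing factor of DNA replication (60 tags, fold 7.15). Of these 6 peaks, that in SETD1B overlapped a peak of the other replicate.

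With peaks split by 20 tags and by nearness to a start into 4 classes, start peaks with 20 or more tags had the highest overlap with the other replicate. There were 187 in replicate 1 and 286 in replicate 2, near 186 and 284 genes, with 17 genes in common. Of these peaks, 11.2% and 7.69% overlapped the other replicate, and 43.3% and 43.7% overlapped HepG2 JARID2 replicate 1. That HepG2 list is long and had a gene-end peak at 4502 of 19970 coding genes (22.5%), a share of genes and not of peaks. By gene, it had one at 313 of the 840 genes with a replicate 1 gene-end peak (37.3%) and at 365 of 875 in replicate 2 (41.7%). EZH2 peaks of either replicate lay under 3.74% and 3.85% of the start peaks with 20 or more tags. Start peaks under 20 tags differed: 4.09% and 4.32% overlapped the other replicate, 17.5% and 24.7% HepG2 JARID2 replicate 1, and 11.1% and 13% an EZH2 peak. Summits of the former lay a median of 305 and 254 bp from the start, and 38% and 34.3% were upstream of it. Away from starts, the 4472 and 4427 peaks under 20 tags, which are most of both lists, overlapped the other replicate at 0.425% and 0.429%, and EZH2 at 1.14% and 1.15%.

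The 55 shared loci were split by distance from the coding starts in the promoter table. At 28 of the 53 that could be placed (52.8%), both summits lay within 1 kb of such a start, and at 22 both lay over 10 kb from one. The table lacks the starts of some genes. The loci at NAAA (36 and 17 tags), TMEM54 (17 and 20 tags) and GNAZ (11 and 12 tags) count among the 22. Their replicate 1 summits nevertheless lay 189, 1197 and 2051 bp from an end of the named gene. The start loci had a median of 28 tags in replicate 1 (from 14 to 50) and of 26.5 in replicate 2 (from 14 to 44). The 25 other placed loci had medians of 13 (from 11 to 36) and 14 (from 12 to 69). Of the start loci, 19 of 28 also overlapped a HepG2 JARID2 replicate 1 peak, and of the others 4 of 25, NAAA among them. That HepG2 list had a gene-end peak at 22.5% of all coding genes, a share of genes and not of loci. Summits of the 2 replicates lay a median of 192 bp apart, and 28 loci had them within 200 bp. Tags of the replicates went together over the 55 loci (Pearson r = 0.541, Spearman coefficient 0.635), a description over loci of the same 2 libraries.

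**Figure D4:**
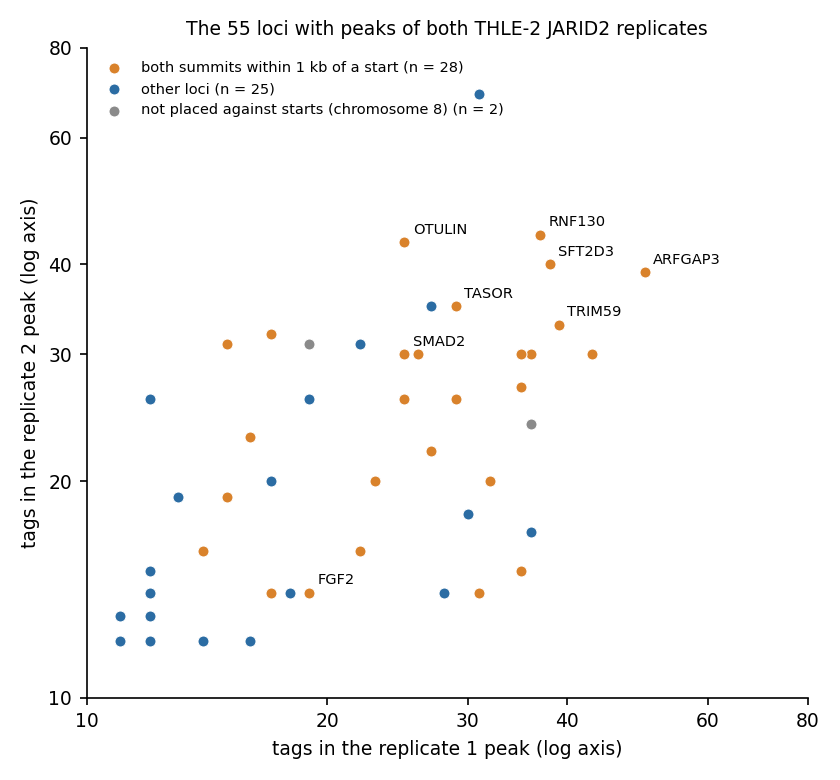
Tags in the replicate 1 peak (x, log axis) and in the replicate 2 peak (y, log axis) at the 55 loci where the peaks of both THLE-2 JARID2 replicates overlap; each point is 1 locus, orange where both summits lie within 1 kb of a coding start, blue elsewhere, grey on chromosome 8. The 28 start loci reach from 14 to 50 and from 14 to 44 tags, and many of the other loci sit near the lowest tag number of the lists. Starts are those in the promoter table.

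RNF130, a membrane-bound ubiquitin ligase, was the first of the shared loci. Its peaks held 37 tags in replicate 1 (chr5:180071878-180072545) and 44 in replicate 2 (chr5:180071805-180072640), with an FDR of 0% in each and summits at -586 and -491 bp from the start, where negative values are upstream. The promoter printed for it overlaps both peaks, but both summits lie farther upstream than that window reaches. The fold was 17.72 and 23.97, the highest of either list. At OTULIN, the deubiquitinase of linear ubiquitin chains, the peaks held 25 and 43 tags with folds of 10.78 and 12.01 (chr5:14663819-14664824 and chr5:14663877-14665413), over the start and the neighbouring lncRNA gene OTULIN-DT. ZNF598, a ubiquitin ligase that acts on collided ribosomes, had 32 and 20 tags and folds of 9.24 and 9.06 (chr16:2009614-2010718 and chr16:2009177-2010095). These 3 starts of ubiquitin enzymes stood among the 12 shared loci of best rank.

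ARFGAP3, a GTPase-activating protein of Golgi transport, had 50 and 39 tags at its start (chr22:42856850-42858064 and chr22:42856919-42857966), with folds of 9.85 and 14.37 and summits 10 bp apart. The locus at chr12:6383222-6383748 and chr12:6383660-6384784 (15 and 31 tags, folds 10.01 and 9.98) lay within LTBR, the lymphotoxin beta receptor gene, with summits at -687 and 393 bp from its nearest annotated starts, and 6116 bp from the end of SCNN1A. At chr15:43329867-43330542 and chr15:43329596-43330472 (15 and 19 tags, folds 9.63 and 8.68), MAPDA, an adenosine deaminase-like gene, and LCMT2 start side by side. On chromosome 8, where starts were not placed, 19 and 31 tags lay over the adjoining ends of XKR9 and LACTB2 (chr8:70668891-70669589 and chr8:70668786-70669626, folds 11.55 and 8.07).

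The other 5 loci of the first 12 were distal and low in tags. One lay 8116 bp inside CASQ2, the cardiac calsequestrin gene (16 and 12 tags, folds 9.15 and 8.31), and one 17582 bp from TRPM6, a magnesium channel gene (14 and 12 tags, folds 8.73 and 9.35). The locus nearest to CXCL13, a B-cell chemokine gene, was 153437 bp away (12 and 13 tags, folds 9.23 and 8.31). Near KCNF1, a potassium channel gene, the distance was 38091 bp (11 and 13 tags, folds 8.53 and 9.41). Near JUN, the AP-1 subunit, it was 111782 bp, inside the lncRNA JUN-DT (13 and 19 tags, folds 8.32 and 9.70). At CASQ2 and KCNF1 H3K27me3 peaks of both H3K27me3 replicates lay at the same place, with folds of 9.61 and 6.39 at CASQ2 and of 6.52 and 3.57 at KCNF1. Ranked by tags in place of fold, 2 of these 12 loci stayed among the first 12, RNF130 and ARFGAP3.

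Other shared loci with many tags in both replicates are named here after their values were seen. The locus in SETD1B, a histone methyltransferase gene, was not near a coding start in the promoter table. Its peaks of 31 and 69 tags (folds 5.55 and 9.41) had summits 7245 and 7211 bp from the nearest such start, that of RHOF. Both summits also lay inside the lncRNA gene LINC01089, which had a peak of each replicate no more than 2 kb from an end. The loci that follow lay at gene starts. SFT2D3, a gene of vesicle transport inside WDR33, had 38 and 40 tags with low folds of 3.78 and 4.23. TRIM59, a tripartite-motif gene, had 39 and 33 tags (folds 6.93 and 6.85), with summits 18 bp apart. TASOR, the scaffold of the HUSH silencing complex that acts through H3K9 methylation, had 29 and 35 tags (folds 8.00 and 10.58) and a HepG2 replicate 1 peak of fold 26.08. SMAD2, a signal transducer of TGF-beta, had 25 and 30 tags (folds 7.80 and 6.21). MCM7, a subunit of the replicative helicase, and AP4M1 start side by side under 26 and 30 tags (folds 4.85 and 7.53). PTBP1, a splicing repressor, had 25 and 26 tags and folds of 4.27 and 11.29. FGF2, a growth factor gene, had fewer, 19 and 14 (folds 7.62 and 7.34).

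Some of these loci sit between genes that start in opposite directions. Another coding gene began on the opposite strand within 1 kb for 5 of the 19 genes whose promoters were shared (26.3%), namely AP4M1, CNTD1, COA3, MAPDA and MCM7. The share was 18.8% of the 292 genes with a promoter under a replicate 1 peak, 18.3% of 387 in replicate 2 and 13.6% of all 15811. These 5 genes belong to 3 loci, so they are not independent.

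By gene, 840 coding genes had a gene-end peak in replicate 1, 4.21% of 19970, and 875 in replicate 2, 4.38%. Both replicates had one at 71 genes (0.356%), and at 36 of them (0.18%) the peaks overlapped, whereas at the other 35 they were apart, some at opposite ends of the gene. LncRNA genes came to 438 (2.41%) and 407 (2.24%) of 18177, with 26 in both (0.143%), among them OTULIN-DT, TCF12-DT, DSG2-AS1 and LINC01089. Of 1911 microRNA genes, 42 and 28 had a peak within the same distance, and MIR1260A and MIR4722 did in both. Transfer RNA genes had 14 and 16 of 443 (3.16% and 3.61%), with 1 in both, TRT-CGT4-1. Over all 59094 annotated genes the shares were 2.54% and 2.5%, and 0.174% in both.

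Of the ranked genes with overlapping peaks in both replicates, LACTB2 shares the XKR9 locus and LCMT2 the MAPDA locus. TMEM54, a membrane protein gene, had peaks of 17 and 20 tags (folds 7.70 and 8.62) beside its annotated extent (chr1:32902281-32903024 and chr1:32902232-32902970). MOV10L1, a germline RNA helicase gene, OGDHL, NGB and SLC9A2 stood as high in rank, but their 2 peaks did not overlap. The peaks of each replicate with the highest folds outside the shared loci were of moderate size. In replicate 1 they were in FSIP1 with THBS1 as the nearest gene end at 42950 bp (18 tags, fold 17.59), in DLGAP4 (19 tags, fold 17.30), in TEAD3, a partner of YAP, 1081 bp from its end (24 tags, fold 16.15), and 19062 bp from HOMER1 (19 tags, fold 16.15). In replicate 2 all 4 lay at gene starts: DHX40 (29 tags, fold 18.82), ZCWPW1, a reader of histone methylation (45 tags, fold 16.97), UHRF1, a factor of DNA methylation maintenance (27 tags, fold 16.66), and the shared start region of CCDC122 and LACC1 (45 tags, fold 15.77). DHX40, ZCWPW1 and UHRF1 also had a HepG2 JARID2 replicate 1 peak, and DHX40 one of HepG2 replicate 2.

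Developmental transcription factors are the classic targets of PRC2. Of 209 such genes, 11 (5.26%) had a gene-end peak in replicate 1 and 20 (9.57%) in replicate 2, beside 4.21% and 4.38% of all coding genes, and 2 had one in both (0.957% against 0.356%). These were FOXA2, a pioneer factor of endoderm and liver, and GSC2, a goosecoid homologue. Of the 11 and 20, 10 and 16 also carried EZH2 in both EZH2 libraries, as did 135 of the 209. Replicate 1 had peaks at FOXE1, FOXF2, NKX2-5, ONECUT1, PHOX2A, PRDM14, SOX3 and others, and replicate 2 at LHX2 (37 tags, fold 7.23), TBX15 (31 tags, fold 6.21), OLIG2 (27 tags, fold 9.41), PAX9 (20 tags, fold 11.43), PTF1A, ALX4, GSC and others. Of 39 HOX genes, 3 in replicate 1 (HOXA11, HOXB2 and HOXC11) and 4 in replicate 2 (HOXA13, HOXC13 and HOXD1 among them) had a peak, 7.69% and 10.3%, none of them in both, with 11 to 19 tags each.

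Polycomb genes were a list of their own. Of 45 genes, 5 (11.1%, beside 4.21% of all coding genes) had a peak in replicate 1: EZH1, the second catalytic subunit of PRC2 (45 tags, fold 10.27), JARID2 itself (27 tags, fold 6.88, summit at -1021 bp from the start), RNF2, the ubiquitin ligase of PRC1 (24 tags, fold 5.2), BAP1, a histone H2A deubiquitinase, and PCGF3. In replicate 2 there were 3 others (6.67%, beside 4.38%), SFMBT1, SFMBT2 and ASXL3. None had a peak in both, where the share over all coding genes was 0.356%. EZH2, SUZ12 and EED had no THLE-2 JARID2 peak at a gene end in either replicate, nor did CDKN2A and CDKN2B, inhibitors of cyclin-dependent kinases that PRC2 is known to silence.

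Hepatocyte function genes encode plasma proteins and metabolic enzymes. Of 129, 2 in each replicate had a peak (1.55%, beside 4.21% and 4.38% of all coding genes), the neighbouring clotting factor genes F7 and F10 under a single peak of 12 tags in replicate 1, and APOC2 and VTN in replicate 2. Of 30 liver transcription factors, 2 in each (6.67%) did, FOXA2 with ONECUT1 in replicate 1 and with CREB3L3 in replicate 2. Olfactory receptors stood at 6 and 2 of 392 (1.53% and 0.51%), and replication-dependent histone genes at 0 of 69 in both.

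Ubiquitin ligases and deubiquitinases, a list drawn up with RNF130, OTULIN and ZNF598 already known as leading genes, had 11 and 8 of 108 genes (10.2% and 7.41%), with those 3 in both. No member had EZH2 gene-end peaks in both EZH2 libraries, beside 975 of 19970 coding genes (4.88%). Hepatocyte function genes, olfactory receptors and cytosolic ribosomal protein genes had none either. SPOP, which brings substrates to a cullin ubiquitin ligase, had 21 tags and a fold of 7.13 at its start in replicate 1 and no peak in replicate 2. Of 74 cell cycle and DNA replication genes, 6 in each replicate (8.11%) had a peak, with MCM7 in both. CDT1 (60 tags), GINS2 (34 tags) and RFC1 (25 tags, fold 13.71) had theirs in replicate 2, and CDK2 (27 tags), MCM10 and POLE2 in replicate 1. Tumour suppressor and liver cancer genes came to 6 and 5 of 69 (8.70% and 7.25%), with SMAD2 in both, KEAP1 (31 tags) in replicate 1 and EGFR (46 tags, fold 5.17) and CDKN1B (42 tags, fold 11.62) in replicate 2. Of 86 cytosolic ribosomal protein genes, 3 (3.49%) had a peak in replicate 1 and 9 (10.5%) in replicate 2, RPS19 with 38 tags. Of 41 WNT ligands and receptors, 5 (12.2%) had one in replicate 1, among them FZD2, WNT11 and RSPO2, and 0 in replicate 2. The shares of all coding genes were 4.21% and 4.38%, and these small counts of 2 single libraries were not tested against each other.

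The remaining lists held small counts. Zinc finger genes had 20 and 24 of 557 (3.59% and 4.31%), with ZNF398, ZNF490 and ZNF598 in both, of which only ZNF598 had overlapping peaks. Ligands of the BMP, TGF-beta, FGF and hedgehog pathways numbered 4 and 5 of 58 (6.90% and 8.62%), with FGF2 in both. Epithelial-mesenchymal genes had 2 and 4 of 52 (3.85% and 7.69%), among them DSP and ZEB1, a repressor of epithelial genes, in replicate 1, and KRT19, OVOL1, GRHL1 and ESRP2 in replicate 2. Neuronal channels and receptors had 4 and 1 of 98, trithorax and H3K27 demethylase genes 2 and 2 of 28, and blood and endothelial markers 2 and 0 of 37. The lists are described by these counts, and nothing particular to any of them is read from the counts.

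**Figure D5:**
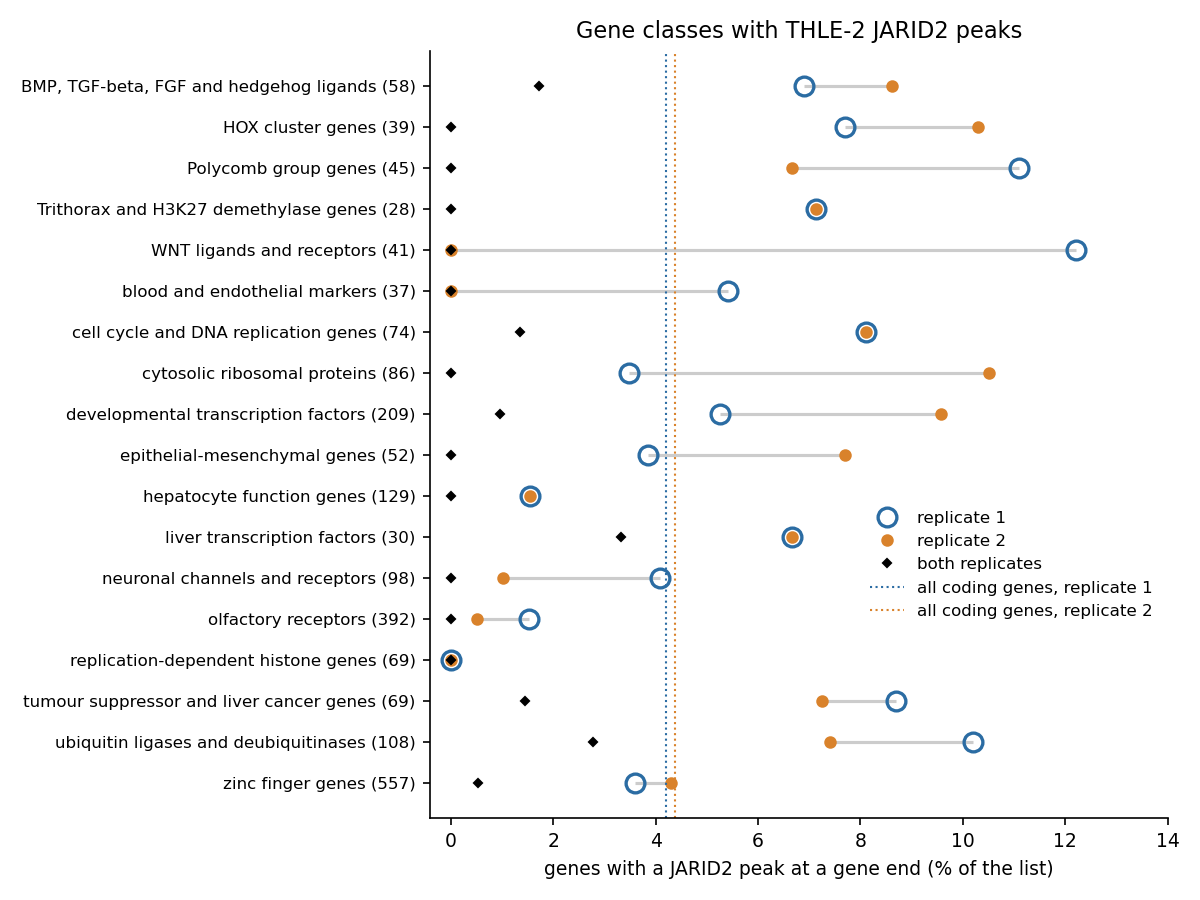
Share of the coding genes of each of 18 lists (number matched in brackets) with a THLE-2 JARID2 peak no more than 2 kb from either gene end, in replicate 1 (blue ring), replicate 2 (orange point) and both (black diamond). Dotted lines mark all coding genes, 4.21% and 4.38%; the shares of WNT genes (12.2% and 0%) and ribosomal protein genes (3.49% and 10.5%) lie on either side of them, and olfactory receptors and hepatocyte genes lie below them in both replicates.

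EZH2, the catalytic partner, was found under a small share of JARID2 peaks, and EZH2 peaks themselves cover little sequence. The 2 EZH2 lists cover 7.37 and 8.46 Mb, while the gene-end windows cover 138 Mb (4.55%). By gene, 57 of the 840 genes with a replicate 1 gene-end peak (6.79%) had EZH2 gene-end peaks in both EZH2 libraries. In replicate 2 it was 70 of 875 (8.0%), beside 975 of all 19970 coding genes (4.88%). An EZH2 peak of either EZH2 replicate overlapped 100 peaks of replicate 1 (1.87%, Wilson 95% interval 1.54% to 2.27%) and 107 of replicate 2 (1.94%, 1.6% to 2.33%), a mean of 1.90% ± 0.0477 (SD, n = 2). Both EZH2 libraries had a peak at 64 of the sites in each JARID2 library. These 64 peaks had medians of 17 and 16 tags, above the 13 and 14 of all peaks. Of those placed, 28.8% and 34.9% lay within 1 kb of a start in the promoter table, which lacks FOXA2, PTF1A and others. Several sites close to a gene end were therefore placed against a far gene. The SP9 site, 31 bp from a gene end, was placed 60727 bp from CIRSR. A BARX1 site, 739 bp from one, was placed at -76197 bp from PTPDC1. These shares near a start can thus be too low. H3K27me3 replicate 2 overlapped 76.6% and 67.2% of the 64 peaks of each JARID2 library, against 11.6% and 8.94% of all JARID2 peaks of the same library, while H3K27me3 replicate 1 overlapped 1.56% and 0%. These sites were chosen for lying on EZH2. Of all peaks of EZH2 replicates 1 and 2, H3K27me3 replicate 2 overlapped 66.4% and 49.4%, and H3K27me3 replicate 1 overlapped 9.95% and 12.4%. Seen from the other side, 3.51% and 3.84% of EZH2 replicate 1 peaks and 2.36% and 2.45% of EZH2 replicate 2 peaks held a JARID2 peak.

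The nearest genes of these 64 and 64 sites had 6 in common: FOXA2, GSC2, PAX9, TBX15, OSTM1 and KIAA1549L. At FOXA2 the JARID2 peak of replicate 1 (chr20:22586549-22587432, 20 tags, fold 13.84) and that of replicate 2 (chr20:22584831-22585746, 20 tags, fold 7.36) did not overlap, but both lay within the EZH2 domain chr20:22581383-22588015. At PAX9, a paired-box factor, separate peaks of 15 and 20 tags lay within the EZH2 domain chr14:36653764-36664816. GSC2 likewise had separate peaks of 12 and 24 tags (folds 8.40 and 6.08), both within the EZH2 replicate 2 domain chr22:19146940-19152578. Overlapping peaks of 19 and 26 tags, 11704 and 11189 bp from TBX15, a T-box factor gene, lay at chr1:119000708-119001544 and chr1:119000509-119001365, on an EZH2 peak of fold 5.97. The second overlapping pair lay 42947 bp from OSTM1 (chr6:108117183-108118273 and chr6:108117497-108117986), with 30 and 18 tags and folds of 6.30 and 10.68, within EZH2 (fold 9.12) and H3K27me3 replicate 2 (fold 8.74). Single-replicate sites on EZH2 with many tags lay, in replicate 1, 416 bp from the nearest end of FOXQ1 (41 tags), 26666 bp from that of FOXD1 (39 tags) and 28434 bp from that of RGS20 (44 tags). In replicate 2 they lay 437 bp from the start of LHX2 (37 tags) and 3015 bp from the nearest start of PAX2 (34 tags).

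Over libraries, the share of gene-end peaks was compared by an exact test. THLE-2 JARID2, at 13.4% and 13.6%, lay between the HepG2 JARID2 libraries, at 27.1% and 3.41% (mean 15.3% ± 16.8, SD, n = 2), so these groups overlapped, and the difference of means was -1.75 percentage points (exact permutation test over libraries, two-sided, p = 1.0). THLE-2 EZH2 stood at 54.6% and 34.9% (mean 44.7% ± 13.9, SD, n = 2), above both JARID2 libraries, a difference of -31.2 percentage points (exact permutation p = 0.3333, BH-adjusted p over the 2 comparisons = 0.6666). With 2 libraries against 2, 0.3333 is the smallest p that the test can give, so neither comparison could pass a threshold.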

How the data were processed

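JARID2 was immunoprecipitated from 2 THLE-2 libraries, each with an input. Per the submitters' processing notes, reads were handled with cutadapt and Bowtie2 on GRCh38, and peaks were called with MACS 1.4.2; versions of cutadapt and Bowtie2: not given in the sources used here. MACS took uniquely mapped reads of 1 IP library and its own input at a time, per the file headers, with a p cutoff of 1e-05 and 1 tag kept per position, and scaled the larger library to the smaller. Columns of the deposited lists are, per the file headers, a tag count per peak, a score (10 times the negative log10 of p), a fold enrichment over local background (a ratio) and an FDR in percent. Replicates were not pooled by the authors.

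Peaks on chromosomes 1 to 22 and X were kept, and 5 and 6 peaks elsewhere were left out. Overlap meant at least 1 shared bp. Gene positions and promoters came from the RefSeq tables of GRCh38.p14 (19970 coding genes). The promoter table used holds 15811 of these genes and no rows of chromosome 8, so starts there were not used. Some genes on other chromosomes also lack a start, and a summit near one is placed against a farther gene. FOXA2 is such a case. Its replicate 2 summit lay 282 bp from a gene end but was placed at -159462 bp from LOC124904962. Gene-end windows span 2 kb on either side of both annotated ends, nearness to a start means a summit within 1 kb, and where 2 genes share an end they share a peak. Shares were computed with Python 3.11.15, numpy 2.4.6 and pandas 2.3.3, and overlap counting was tested on simulated intervals. Libraries were compared by exact permutation, two-sided; this was run on the gene-end share only, and peaks of 1 library were not treated as replicates. A gene without a deposited peak is one where MACS called none.

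The sites and the 18 gene lists were chosen with earlier results of these data known. Named are the 12 shared loci of best worse rank of fold, the 10 coding genes of best rank with overlapping gene-end peaks in both replicates, the 4 peaks of highest fold of each replicate that are not shared, up to 4 members of each list with peaks in both replicates, and always JARID2, EZH2, SUZ12, EED, CDKN2A, CDKN2B, RNF130, ARFGAP3, SPOP and FOXA2. Genes named for their tags, for their EZH2 sites or as single-replicate members of a list were chosen after their values were seen.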

Additional observations from a re-analysis of the deposited data

How the results depend on the processing

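The 55 shared peaks of replicate 1 became 34 with a reciprocal overlap of 50%, 28 with summits within 200 bp, 2 at a score of at least 100, 1 at an FDR of at most 5% and 4 among the 2000 peaks of highest fold, and stayed at 55 on autosomes. In settings chosen after seeing the data, 22 remained among peaks of 20 or more tags and 32 among the 2000 peaks of most tags. The gene-end share of 13.5% became 10.7% and 19.7% with windows of 1 and 5 kb, 12.8% by summits, 45.3% at a score of at least 100, 73.9% at an FDR of at most 5% and 50.1% with 20 or more tags, and from 13.4% to 13.6% with 1 replicate left out. The 71 genes in both replicates became 57 and 130 with windows of 1 and 5 kb, 36 where peaks overlap, 2 at a score of at least 100, 1 at an FDR of at most 5% and 31 with 20 or more tags; 1 replicate alone gave 840 to 875. The 1.90% of peaks on EZH2 became 1.77% by summits, 3.77% at a score of at least 100 and 4.76% with 20 or more tags, and 1.87% to 1.94% with 1 replicate left out. Of the 12 named loci, 2 stayed among the first 12 by tags. Fewer peaks enter under the score, FDR and tag settings; otherwise the cause was not tested.

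The difference in gene-end share from HepG2 JARID2, -1.75 percentage points, turned to 8.70 at a score of at least 100 (exact permutation p = 1.0), and lay between -13.7 and 10.2 with 1 replicate number left out: it turned without replicate 1, whose HepG2 library had 27.1%. That from EZH2 kept its direction under the 6 alternatives run, from -41.2 to -21.2. The replicate numbers are shared by label only. With them as a replicate block the differences were -1.75 (exact sign-flip p = 1.0) and -31.2 (exact sign-flip p = 0.5), and no call changed, since no p could pass. With a median of 13 and 14 tags per peak, absence of a peak in 1 replicate does not show absence of binding.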
